A study of Strigamia maritima with 9 samples.

Results

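CopiaMBD3 is a domain of the methyl-CpG binding family from a Copia retrotransposon of the centipede *Strigamia maritima*. Its binding was mapped on amplified genomic DNA, from which methyl groups are lost, and on native genomic DNA, which keeps them. All rows of its peak list on each kind of DNA were taken, 169 from amplified DNA and 15714 from native DNA, or 15883 of the 37836 peaks in the 6 peak lists of the series. The question is which of the sites bound on native DNA are still bound once the DNA has been copied by PCR, and what sets those sites apart.

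Methyl-CpG binding domains are small protein folds that recognise a CG dinucleotide whose cytosines are methylated on both strands. In vertebrates, proteins with such a domain are known to bring repressor complexes to methylated DNA. Copia elements are long terminal repeat retrotransposons, which move through an RNA copy that an element-encoded reverse transcriptase turns into DNA and an integrase inserts into the genome. The assay used here, DNA affinity purification sequencing (DAP-seq), offers naked genomic fragments to a protein made in vitro and sequences the fragments that stay bound.

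Both libraries came from adult tissue, of the same strain as the sequenced genome, with phenol-chloroform extracted DNA sheared to a mean of 200 bp and ligated to adapters. For the amplified library the adapter-ligated DNA was copied for 11 PCR cycles before it met the protein, and the native library had no such step. In both, the protein was the CopiaMBD domain translated in vitro as a fusion with HaloTag, a protein tag used for capture, and 20 PCR cycles followed the purification. The controls were HaloTag alone on amplified DNA and HaloTag alone on native DNA. What was tested is thus the domain on protein-free DNA, not the whole retrotransposon protein in cells, and the sources used here do not give the number of animals. DNA methylation itself was not analysed here. There was 1 library on each side, so no comparison here has a replicate check or a p-value, and the exact intervals in parentheses cover counting error over peaks only, with neighbouring peaks treated as independent.

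More tags entered peak calling for the amplified library. After removal of tags at repeated positions and down-sampling to equal size with the control, the peak caller used 3488873 tags for amplified DNA and 2044955 for native DNA, 1.71 times as many on amplified DNA. The deposited pileup, the number of fragments over a peak's summit, is not scaled for this, so it is given also as a scaled pileup, in fragments per 1000000 tags used. The peak caller's fragment length, which is the narrowest width a peak can have, was 130 bp for amplified DNA and 140 bp for native DNA. No molecular identifiers are described, so copies of 1 molecule cannot be counted apart.

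Nearly all sites called on native DNA were not called on amplified DNA. The amplified library had 169 peaks (exact Poisson 95% interval 144 to 196) and the native library 15714 (15469 to 15962), a ratio of 0.0108 (0.00919 to 0.0125), although the amplified library had more tags. Of the native peaks, 42 were overlapped by an amplified-DNA peak by at least 1 bp and are called kept below, which is 0.267% of them (exact Clopper-Pearson 95% interval 0.193 to 0.361). The other 15672 native peaks are called lost. Over the native peaks of all 3 domains of the series the share was 0.234%, with 0.241% for CopiaMBD1 and 0.193% for CopiaMBD2, so the share for CopiaMBD3 lay close to the others. A lost site has no amplified-DNA value in the lists, so its binding there is known only to have been below the calling threshold.

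How far below depends on the depth and on the weakest p that passed the q-value cutoff in each list. The weakest −log10 p from the peak caller was 3.86 on amplified DNA and 2.83 on native DNA, so the native list admitted weaker peaks. Where the HaloTag-only control was at its genome-wide average, the lowest pileup called was 10 fragments on amplified DNA, a scaled pileup of 2.87, and 7 fragments on native DNA, a scaled pileup of 3.42. At that control level there were 15 amplified-DNA peaks and 3269 native-DNA peaks. The 3264 lost peaks among those native peaks had a median scaled pileup of 7.34, so the lowest level called on amplified DNA there was 39.1% of their median native level. Whether the control at the same places was also at its average on amplified DNA is not known for lost sites.

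Like nearly all native peaks, most with a very high deposited fold enrichment were lost. Fold enrichment is the authors' ratio of pileup to local control. The native peak of highest fold lay on AFFK01000331 (653 to 979), 327 bp wide, with a pileup of 96 fragments, a scaled pileup of 46.9 and a fold of 34.3, and it was lost. Next by fold was a kept peak on AFFK01005886 with 31.6, followed by the lost peaks on AFFK01019298 (2003 to 2342) with a fold of 27.9 and AFFK01001368 (647 to 908) with a fold of 26.5. The 8 lost peaks of highest fold reached 23.3 to 34.3, were 233 to 417 bp wide and had pileups of 61 to 98 fragments. Of these 8, 7 lay on contigs with AFFK names, and their control levels were 1.0 to 1.83 times the genome average. None of the 8 had an amplified-DNA peak anywhere on its sequence. The peak on AFFK01005886 was the only kept one among the 100 native peaks of highest fold, and 10 kept peaks stood among the first 1000.

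The other domains of the series were read from libraries that share a HaloTag-only control with the CopiaMBD3 library of the same DNA kind, so only their own values are given. At AFFK01000331 native folds were 34.3 for CopiaMBD3, 9.81 for CopiaMBD1 and 21.4 for CopiaMBD2. At AFFK01010340 (723 to 973) they were 23.4 for CopiaMBD3 and 13.2 for CopiaMBD1, with no CopiaMBD2 peak. At AFFK01000617 (398 to 630) they were 24.7 for CopiaMBD3, 14.3 for CopiaMBD1 and 6.52 for CopiaMBD2. Of the 8 lost peaks of highest fold, 7 had native peaks of both other domains. At those not yet given, CopiaMBD1 and CopiaMBD2 native folds were 11.6 and 18.0 on AFFK01019298, 7.96 and 11.2 on AFFK01001368 and 13.6 and 17.7 on AFFK01017074. They were 5.80 and 7.46 on AFFK01010538 and 14.4 and 21.8 on JH431035. The share of all native CopiaMBD3 peaks with native peaks of both other domains is not given here. The 7 of 8 therefore cannot be read as a trait of these lost peaks.

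Amplified-DNA peaks were narrow and close to the smallest width the caller allows. Their median width was 144 bp (exact 95% interval of the median 141 to 150, interquartile range 132 to 161), against 206.5 bp (205 to 208, interquartile range 164 to 286) on native DNA. At the width floor itself were 32 of 169 amplified-DNA peaks (18.9%, 13.3 to 25.7) and 1100 of 15714 native-DNA peaks (7.0%, 6.61 to 7.41). Widths over 300 bp were found for 2 amplified-DNA peaks (1.18%, 0.144 to 4.21) and 3506 native-DNA peaks (22.3%, 21.7 to 23.0). The widest amplified-DNA peak spanned 383 bp on JH430276 (5523 to 5905), and the widest native-DNA peak spanned 2109 bp on JH431198 (209253 to 211361). Peaks were narrower on amplified DNA on both kinds of sequence, with medians of 147 bp on amplified DNA and 206 bp on native DNA for scaffolds with JH names. For contigs with AFFK names they were 142 bp on amplified DNA and 208 bp on native DNA.

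**Figure D1:**
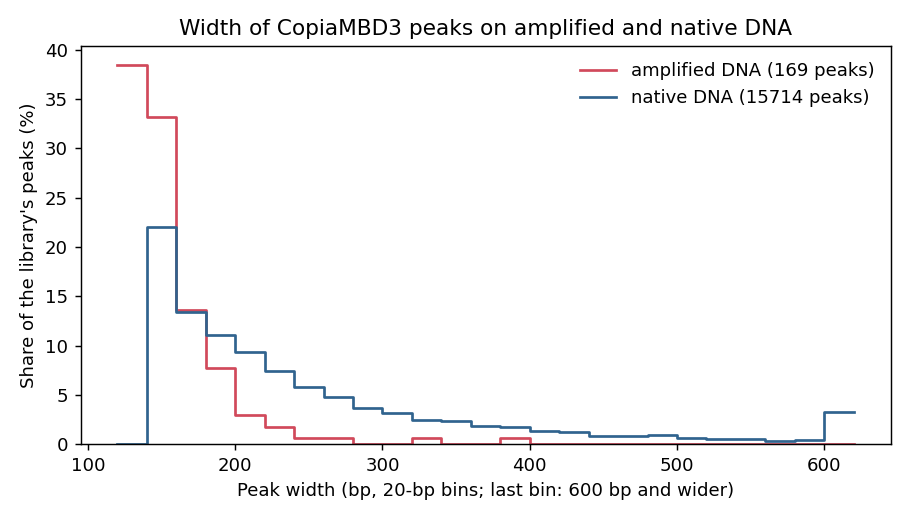
Share of each library's peaks (%) by peak width in 20-bp bins, for the 169 amplified-DNA and 15714 native-DNA peaks of CopiaMBD3; the last bin holds all peaks of 600 bp and wider. Amplified-DNA peaks crowd near the 130-bp floor (median 144 bp), whereas native-DNA peaks start at 140 bp and trail far to the right (median 206.5 bp).

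Scaled pileup of the called peaks was also lower on amplified DNA. Its median was 6.02 (5.45 to 6.31, interquartile range 4.87 to 7.45) there and 8.80 (8.80 to 8.80, interquartile range 6.85 to 12.2) on native DNA. The unscaled medians run the other way, 21.0 fragments on amplified DNA and 18.0 on native DNA. All these medians cover called peaks only, which are largely different sites in each list. At genome-average control the lowest scaled pileup called was 2.87 on amplified DNA and 3.42 on native DNA. The calling threshold is therefore part of these medians. The highest amplified pileup, 238 fragments, was on AFFK01003138 (504 to 634), where the control stood at 41.1 times its genome average and the fold was 2.20. The highest native pileup, 280 fragments, was on AFFK01014187 (1252 to 1710), where the control stood at 68.2 times its average and the fold was 2.48. Both of these tallest sites thus had a low fold.

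Summits lay near the middle of peaks in both lists. The median distance of the summit from the peak centre was 21.5 bp (18.5 to 24.5) on amplified DNA and 19.5 bp (19.0 to 20.0) on native DNA. The interval for amplified DNA spans the native median. As a share of the distance from centre to edge it was 30% (23.1 to 33.1) on amplified DNA and 19.3% (19.0 to 19.7) on native DNA. The summit lay on the side of the lower coordinate in 101 of 169 amplified-DNA peaks (59.8%, 52.0 to 67.2) and 8317 of 15714 native-DNA peaks (52.9%, 52.1 to 53.7). Among the 43 amplified-DNA peaks that overlap a native peak it was 20 (46.5%, 31.2 to 62.3), and among the 126 that do not, 81 (64.3%, 55.3 to 72.6).

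At the sites called on both kinds of DNA the signal was weaker on amplified DNA at almost every one. Of the 169 amplified-DNA peaks, 43 overlapped a native peak of CopiaMBD3 (25.4%, 19.1 to 32.7), against 5.03% for CopiaMBD1, 20.3% for CopiaMBD2 and 13.3% over the 660 amplified-DNA peaks of all 3 domains. These 43 fell on 42 native peaks, because the 825-bp native peak on JH430073 was overlapped by 2 of them. Scaled pileup was lower on amplified DNA at 42 of the 43 (97.7%, 87.7 to 99.9), with a median amplified-to-native ratio of 0.415 (0.340 to 0.524) and a range of 0.192 to 1.13. The median scaled pileups were 6.31 (5.16 to 9.17) on amplified DNA and 15.2 (12.2 to 22.5) on native DNA. A site enters this set only if it was called in both lists, so it does not give the ratio at native sites at large.

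The single site above a ratio of 1 was AFFK01011333, whose scaled pileup was 13.8 on amplified DNA and 12.2 on native DNA, with the amplified summit 181 bp from the native one and the control at 10.4 times its genome average on amplified DNA and 2.99 times on native DNA. The lowest ratio, 0.192, was at the kept peak on JH430128 (8530 to 9625), the widest of the kept native peaks at 1096 bp, with a scaled pileup of 11.5 on amplified DNA and 59.7 on native DNA. The control level was raised at many of these sites. It was at least 3 times its genome average at 17 of 43 (39.5%) on amplified DNA and at 17 of 43 on native DNA, and at 12 on both. Over the whole lists such levels were found at 48 of 169 amplified-DNA peaks (28.4%) and 2271 of 15714 native-DNA peaks (14.5%). The exact interval for 17 of 43 spans the amplified-DNA share and lies above the native-DNA share. At the 21 of these 43 sites with a control under 3 times on both, scaled pileup was lower on amplified DNA at 21 of 21. Their median ratio was 0.373 (0.338 to 0.517). Scaled pileup does not allow for the unequal fragment lengths. With pileup divided instead by tags × fragment length / genome size, the median ratio over the 43 was 0.447 (0.367 to 0.565). By that measure JH431311, which is among the 21, stood at 1.03.

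**Figure D2:**
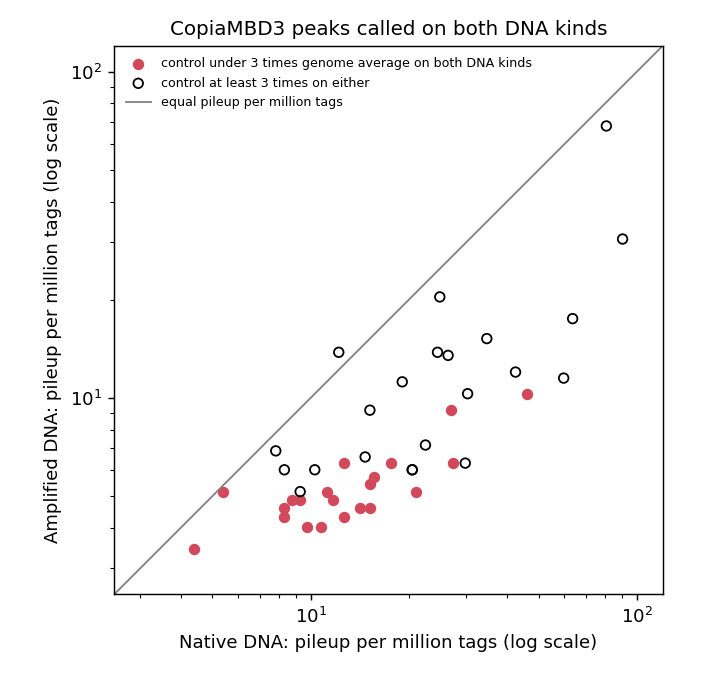
Scaled pileup (fragments per 1000000 tags) at the 43 amplified-DNA peaks that overlap a native peak, amplified DNA (vertical, log scale) against native DNA (horizontal, log scale); filled points are the 21 sites with a HaloTag-only control under 3 times its genome average on both DNA kinds, open points the others, and the line marks equal values. All points but 1 lie below the line.

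Deposited fold enrichment gave the same order at most of these sites. It was lower on amplified DNA at 39 of 43 (90.7%, 77.9 to 97.4), with medians of 3.37 on amplified DNA and 7.14 on native DNA. The 4 exceptions were all among the 8 amplified-DNA peaks of highest fold in this set. Those 8 were picked by amplified fold, which by itself favours such exceptions. On AFFK01007043 (1071 to 1205) the amplified fold was 7.20 and the native fold 6.69, while scaled pileup was 7.17 on amplified DNA and 22.5 on native DNA. There the control was at 1.0 times its average on amplified DNA and at 3.66 times on native DNA, so the fold and the scaled pileup order the libraries differently. On JH431311 (7191 to 7332) the folds were 5.26 on amplified DNA and 2.39 on native DNA, on JH430949 (10029 to 10169) 4.73 and 2.49, and on JH430749 (16790 to 16919) 4.70 and 3.98, in each case with a lower control level on amplified DNA. Because control level was recovered from pileup and fold, a higher fold at a lower scaled pileup largely fixes a lower control level.

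At the kept site of highest native fold both measures were lower on amplified DNA. On AFFK01005886 the amplified peak (1286 to 1469) had 36 fragments, a scaled pileup of 10.3 and a fold of 5.27, and the native peak (1219 to 1444) had 94 fragments, a scaled pileup of 46.0 and a fold of 31.6. The summits were 8 bp apart. At this site amplified folds were 5.27 for CopiaMBD3 and 3.80 for CopiaMBD2, and CopiaMBD1 had no amplified-DNA peak. The kept peak of highest native pileup, on JH431862 (18346 to 18711), had 107 fragments and a fold of 3.58 on amplified DNA, against 185 fragments and a fold of 8.82 on native DNA.

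The amplified-DNA peak usually sat inside the native one. It was narrower than the native peak at 40 of 43 sites, lay wholly within it at 26, and had its summit inside it at 40. Median widths at these sites were 147 bp (135 to 160.0) on amplified DNA and 307 bp (246 to 366) on native DNA. The summits on the 2 kinds of DNA were a median of 46.0 bp apart (25 to 68), within 25 bp at 15 sites, within 50 bp at 23 and within 100 bp at 33. At the 10 sites with summits over 100 bp apart the native peak had a median width of 395.5 bp (229 to 825), and at the other 33 it was 305 bp (226 to 363).

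Native peaks that kept an amplified-DNA peak had a higher median width and pileup than those that lost it, though the difference in width depended on the rule. Kept peaks had a median width of 306 bp (246 to 363) and lost peaks 206 bp (205 to 208). Their median scaled native pileup was 15.2 (12.2 to 22.5) for kept and 8.80 (8.80 to 8.80) for lost peaks. A wider peak is more easily overlapped, so width is in part built into the rule. When a kept site was instead one with summits within 100 bp, which does not use width, the 33 kept peaks had a median width of 305 bp (226 to 363). Under an overlap of at least 50% of each peak, which favours native peaks about as wide as the amplified ones, the 22 kept peaks had a median width of 219 bp (164 to 284), an interval that spans the median of the lost peaks. It also does so when both lists are limited to a −log10 q of 5 or more, with 252 bp (164 to 734) for the 13 kept peaks and 220.0 bp (218 to 222) for the lost ones. Summits lay farther from the centre in kept peaks, by a median of 40.0 bp (24.5 to 56.5), than in lost ones, 19.5 bp (19.0 to 20.0). As a share of the distance from centre to edge, which allows for width, the medians were 26.4% (16.9 to 35.8) for kept and 19.3% (19.0 to 19.7) for lost peaks.

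Native peaks were ranked on each of 4 measures and cut into 5 groups of equal size, and the share kept was highest in the top group on each. By scaled pileup it was 0.0636% in the lowest group, 0 of 3143 in the next, which allows up to 0.117%, and 0.795% in the top group (0.515 to 1.17, 25 of 3143). By width it was 0.159% in the lowest and 0.573% (0.340 to 0.904) in the top group, and by fold enrichment 0.191% and 0.605% (0.364 to 0.942). By control level it was 0.159% in the lowest and 0.700% (0.439 to 1.06) in the top group. On no measure did the share rise steadily from group to group. By fold enrichment and by control level it was lowest in the middle group, 0.0318% on each (1 of 3142). Even in the top groups more than 99% of peaks were lost. These measures are taken from the same peaks and are not independent of each other, and their separate parts were not tested.

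Set by fold and control level together, the share kept was higher at the higher control level in each band of fold. Control level was recovered from pileup and fold, so at equal fold a higher control is also a higher pileup. The bands therefore do not separate control level from pileup. Among native peaks of fold 10 or more it was 3.26% (0.678 to 9.23, 3 of 92) where the control was at least 3 times its genome average and 0.713% (0.262 to 1.55, 6 of 841) where it was under 3 times. Among native peaks of fold 5 to 10, kept peaks numbered 7 of 636 at the higher control level (0.444 to 2.25%) and 14 of 6918 at the lower (0.111 to 0.339%). Below fold 5 they numbered 6 of 1543 at the higher level (0.143 to 0.844%) and 6 of 5684 at the lower (0.0387 to 0.230%). The intervals overlap in the bands of fold 10 or more and below 5, and in every band they rest on few kept peaks. Control levels at kept and lost peaks had medians of 2.44 (1.83 to 3.05) and 1.36 (1.36 to 1.36) times the genome average.

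**Figure D3:**
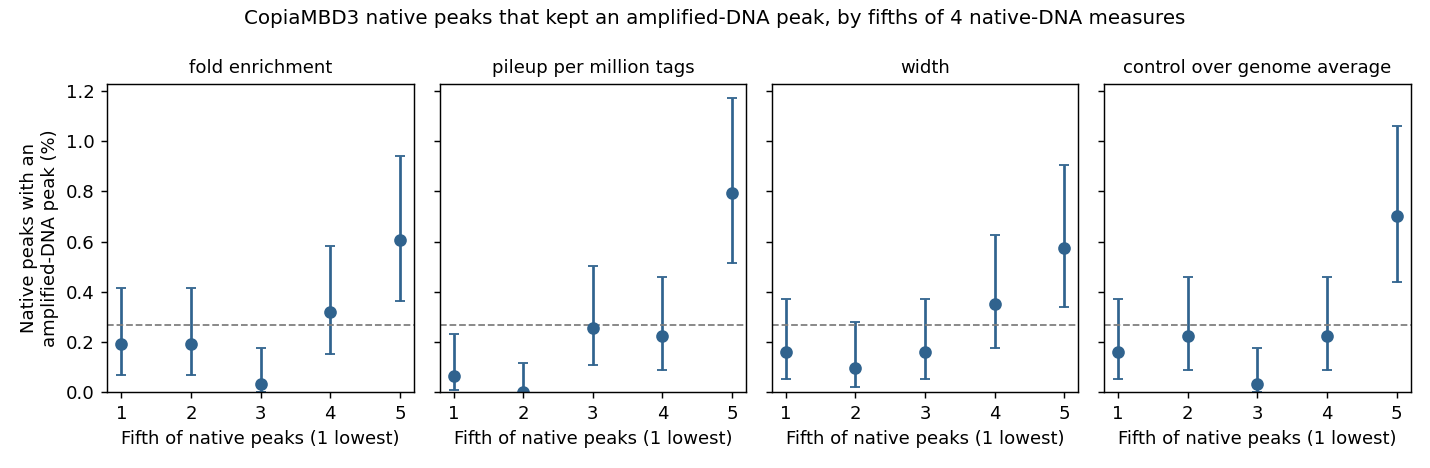
Share of native CopiaMBD3 peaks (%) overlapped by an amplified-DNA peak, in 5 equal groups of the native peaks ranked by fold enrichment, scaled pileup, width and HaloTag-only control level; bars are exact 95% intervals and the dashed line is the share over all native peaks (0.267%). The top group has the highest share in each panel, from 0.573 to 0.795%.

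The amplified-DNA peaks with and without a native peak under them had overlapping intervals in size, which shows neither a difference nor likeness. Median widths were 147 bp (135 to 160.0) for the 43 overlapping peaks and 144 bp (140.0 to 151) for the 126 amplified-only peaks. Median scaled pileups were 6.31 (5.16 to 9.17) for the overlapping and 5.73 (5.45 to 6.31) for the amplified-only peaks. Median folds were 3.37 (2.83 to 3.79) for the overlapping and 3.53 (3.29 to 3.79) for the amplified-only peaks. Control levels of at least 3 times the genome average were found at 17 of 43 overlapping peaks (39.5%, 25 to 55.6) and 31 of 126 amplified-only peaks (24.6%, 17.4 to 33.1). The one of highest fold among the 126 lay on AFFK01017221 (1947 to 2076), 130 bp wide, with 41 fragments, a scaled pileup of 11.8 and a fold of 6.97. Its contig had no native CopiaMBD3 peak, and no native peak of the other domains overlapped it. The 8 of highest fold were 130 to 151 bp wide, with folds of 4.93 to 6.97 and control levels of up to 1.92 times the genome average. The widest, on JH432185 (56010 to 56330), spanned 321 bp with a fold of 1.88 and a control at 13.8 times its average.

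Few of these peaks lay just beside a native one. Only 4 of the 126 were within 100 bp of a native peak, and 9 within 500 bp. Of all 169 amplified-DNA peaks, 59 lay on or within 1000 bp of a native peak (34.9%, 27.8 to 42.6), 87 on or within 10 kb (51.5%, 43.7 to 59.2), and 57 farther than 10 kb from one on the same sequence (33.7%, 26.6 to 41.4). The remaining 25 were on 24 sequences with no native peak at all (14.8%, 9.81 to 21.1), 17 of them on AFFK contigs and 8 on JH scaffolds. For the 101 amplified-only peaks with a native peak somewhere on their sequence, the median distance to it was 13268 bp.

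Spacing within each list differed by a wide margin. On amplified DNA 148 of 169 peaks were alone on their sequence (87.6%, 81.6 to 92.1), and on native DNA 2726 of 15714 (17.3%, 16.8 to 17.9). A summit within 1000 bp was found for 2 amplified-DNA peaks (1.18%, 0.144 to 4.21), both overlapping the 825-bp native peak on JH430073, and for 6355 native-DNA peaks (40.4%, 39.7 to 41.2). Peaks with company on their sequence had a median distance to the nearest summit of 94203 bp on amplified DNA (31140 to 151942, 21 peaks) and 1034 bp on native DNA (1005 to 1068, 12988 peaks). A longer list is denser by its number alone, so these distances are descriptions of the lists. Native spacings were most frequent at 300 to 400 bp, with 1211 peaks, and none was under 100 bp. Each native peak spans at least 140 bp, which limits how close summits can lie, so the lack of short spacings is in part built in.

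Most native peaks, 9359 of 15714, had no other native summit within 1000 bp, and so did 28 of the 42 kept ones. Summits no more than 1000 bp from the next formed 2618 runs of at least 2, and 83 runs held 5 or more. The longest had 10 native peaks on JH431830 (39983 to 44445), none of them kept. Only 0.267% of all native peaks were kept, so a run of 10 would seldom hold a kept peak. Of the kept peaks, 14 of 42 were in runs of at least 2 (33.3%, 19.6 to 49.5) and of the lost peaks 6341 of 15672 (40.5%, 39.7 to 41.2). No run held more than 1 kept peak, which is likely in any case with 14 kept peaks and 2618 runs. On the 5 sequences with the most native peaks the amplified and native counts were 0 and 164 on JH432211, 2 and 146 on JH431789, 0 and 99 on JH431830, 1 and 92 on JH432185, and 1 and 79 on JH432085. None of the 4 amplified-DNA peaks there overlapped a native one, against 25.4% of all 169, and 4 peaks are too few to set against that share.

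**Figure D4:**
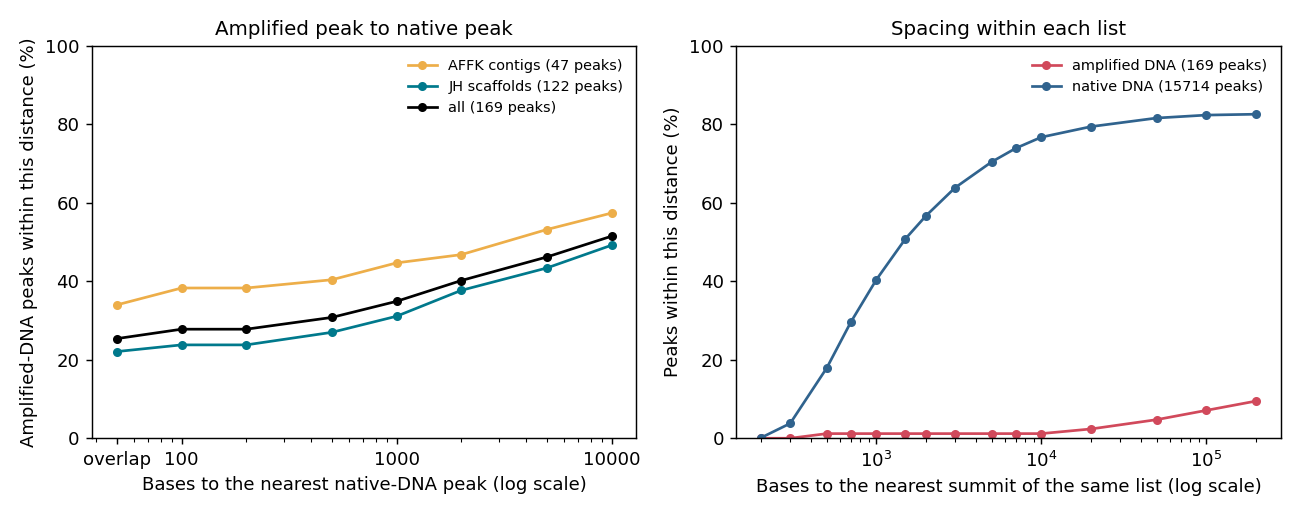
Left, cumulative share of the amplified-DNA peaks (%) within a given number of bases of the nearest native-DNA peak, for all 169, the 47 on AFFK contigs and the 122 on JH scaffolds; right, share of each list's peaks (%) with another summit of the same list within a given distance, peaks alone on their sequence counting as having none. Both horizontal axes are logarithmic; 51.5% of amplified-DNA peaks are on or within 10 kb of a native peak, and within 1000 bp the lists stand at 1.18% (amplified) and 40.4% (native).

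The share of peaks on AFFK contigs was lower in the amplified list, with intervals that meet. AFFK contigs held 47 of 169 amplified-DNA peaks (27.8%, 21.2 to 35.2) and 5645 of 15714 native-DNA peaks (35.9%, 35.2 to 36.7). Restricted to a −log10 q of 5 or more, the shares were 34.0% (21.2 to 48.8) on amplified DNA and 37.6% (36.7 to 38.4) on native DNA. Of the overlapping amplified-DNA peaks 16 of 43 were on AFFK contigs (37.2%, 23.0 to 53.3), and of the amplified-only ones 31 of 126 (24.6%, 17.4 to 33.1), with intervals that overlap. Among native peaks the interval for kept ones spanned the share of lost ones, with 16 of 42 kept (38.1%, 23.6 to 54.4) and 5629 of 15672 lost (35.9%, 35.2 to 36.7) on AFFK contigs. The share kept was 0.283% (0.162 to 0.460) on AFFK contigs and 0.258% (0.169 to 0.378) on JH scaffolds. The interval for the kept peaks is wide enough to hide a difference of more than 10 percentage points in either direction.

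Median start along JH scaffolds differed between the overlapping and the amplified-only peaks, with intervals that do not meet. On JH scaffolds the 27 amplified-DNA peaks that overlap a native peak started at a median of 15974 bp from the scaffold's first base (9125 to 23188), and the 95 amplified-only peaks at 109653 bp (74002 to 149909). The kept native peaks on JH scaffolds had a median start of 15393 bp (8530 to 22866) and the lost ones 22618 bp (21683 to 23774). An overlapping peak can lie only where native peaks lie, and all native peaks on JH scaffolds had a median start of 22538 bp (21615 to 23722). The difference among amplified-DNA peaks is thus in part built into the sets. A start far from the first base needs a long scaffold, and scaffold lengths were not used here, so position and length cannot be told apart. Within 200 bp of the first base began 2 of 47 amplified-DNA peaks on AFFK contigs (4.26%, 0.520 to 14.5) and 727 of 5645 native-DNA peaks there (12.9%, 12.0 to 13.8). On JH scaffolds it was 0 of 122 amplified-DNA peaks, which allows up to 2.98%, and 83 of 10069 native-DNA peaks (0.824%, 0.657 to 1.02). Within each kind of sequence the interval for amplified DNA spans the native share.

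**Figure D5:**
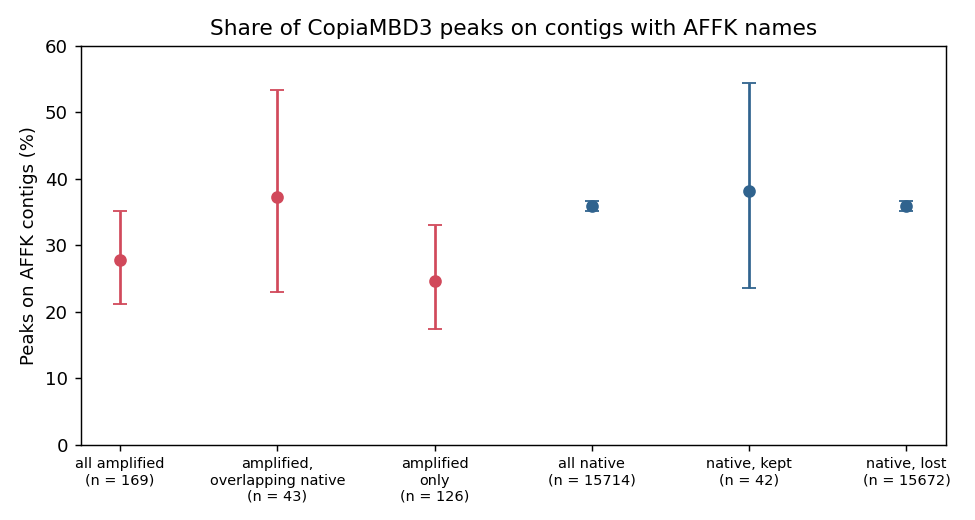
Share (%) of CopiaMBD3 peaks on contigs with AFFK names, for all amplified-DNA peaks, those overlapping a native peak and those that do not, and for all native-DNA peaks, those kept and those lost; points are shares and bars exact 95% intervals. Amplified-only peaks have the lowest share (24.6%), and the kept peaks (38.1%) have an interval that spans the lost ones (35.9%).

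For the same measures the other domains gave the following values, which share HaloTag-only libraries with those of CopiaMBD3 and were not tested against them. The median amplified-to-native ratio of scaled pileup at sites called on both DNA kinds was 0.415 (0.340 to 0.524) for CopiaMBD3, 0.773 (0.584 to 1.10) for CopiaMBD1 and 0.694 (0.508 to 0.814) for CopiaMBD2. It was below 1 at 42 of 43 sites for CopiaMBD3, 12 of 18 for CopiaMBD1 and 23 of 27 for CopiaMBD2. These ratios do not allow for fragment length. On amplified and native DNA it was 130 and 140 bp for CopiaMBD3, 130 and 145 bp for CopiaMBD1 and 137 and 140 bp for CopiaMBD2. Summits at these sites were a median of 46.0 bp apart for CopiaMBD3, 36.0 bp for CopiaMBD1 and 40.0 bp for CopiaMBD2. Kept and lost native peaks were 306 and 206 bp wide for CopiaMBD3, 243 and 196 bp for CopiaMBD1 and 231 and 200.0 bp for CopiaMBD2.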

How the data were processed

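Peaks of CopiaMBD3 on amplified and native DNA, and of 2 further domains for side-by-side values, were read from the authors' deposited lists. Groups came from the sample titles, which name 9 samples; the bisulfite library was not analysed here. The authors ran MACS 2.1.0.20150731 on single libraries, per the file headers, with a q-value cutoff of 0.05. The control for a domain was HaloTag alone on DNA of the same kind, with the larger library sampled down, 1 tag kept per position and an effective genome size of 173.6 Mb. The submitters' processing notes list fastp, CASAVA 1.8.2, BS-Seeker2, Bowtie2 and Bowtie without roles. The sources used here give neither the genome build nor the aligner of these libraries. Positions are 1-based as deposited. No genome was used, so no sequence, gene or repeat is given. Pileup is a coverage signal as deposited, the deposited fold enrichment is a ratio of pileup to local control, and the deposited −log10 p and q values come from MACS.

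Control level was recovered as (pileup + 1) / fold − 1. A Poisson tail with it returned the deposited −log10 p to within 0.001 for 169 of 169 amplified and 15714 of 15714 native peaks, and its lowest value equalled tags × fragment length / genome size, the genome average, 2.61 and 1.65 fragments. Overlaps, medians with exact order-statistic intervals and shares with Clopper-Pearson intervals (95%) were computed with Python 3.11.15, numpy 2.4.6, pandas 2.3.3 and scipy 1.17.1, and plots drawn with matplotlib 3.10.9. The functions were tested on simulated lists. Named peaks are the 8 of highest fold among overlapping and non-overlapping amplified peaks and lost native peaks, the widest and tallest of each set and of kept peaks, and the 5 sequences richest in native peaks. Sites singled out for a summit distance or ratio at either end (AFFK01011333, JH430073) were chosen after their values were seen. The members and measures were chosen with earlier results of these data known.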

Additional observations from a re-analysis of the deposited data

Results flagged for a closer look

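Of the 126 amplified-DNA peaks of CopiaMBD3 with no native CopiaMBD3 peak, 10 overlapped a native-DNA peak of another domain, 6 of CopiaMBD1 and 10 of CopiaMBD2. This is 7.94% (exact 95% interval 3.87 to 14.1), and it was singled out as a signal in lists that the comparison of CopiaMBD3 with itself does not use. The share that unrelated lists would give was not computed. Among the 43 amplified-DNA peaks with a native CopiaMBD3 peak the number was 40 (93.0%, 80.9 to 98.5), and among all 169 it was 50 (29.6%, 22.8 to 37.1). The native lists of the 3 domains share a HaloTag-only library, which differs from that of the amplified list, and its part in these counts was not tested.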

How the results depend on the processing

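Each of 23 values was recomputed under the alternatives, 88 values in all, of which 51 stayed within the interval of the reported value (for counts, within 1.5 times) and 37 did not. With −log10 q of at least 5 in both lists there were 50 amplified-DNA peaks, the ratio of peak numbers was 0.00414, and 0.108% of native peaks were kept. Median widths were then 140.5 bp (amplified), 220.0 bp (native) and 220.0 bp (lost), summits lay 16.2 bp (amplified) and 18.5 bp (native) from the centre and 23.0 bp apart at overlapping peaks, native and lost AFFK shares were both 37.6%, native spacing was 1278 bp, and scaled pileup was 7.88 (amplified), 9.78 (native), 26.9 (kept) and 9.78 (lost). On JH scaffolds alone there were 10069 native peaks, spaced at 1188 bp. With an overlap of at least 50% of each peak, 13.0% of amplified-DNA and 0.140% of native-DNA peaks overlapped, and kept peaks were 219 bp wide. Merging peaks under 200 bp apart gave native medians of 213 bp for width and 1447 bp for spacing. With as many native as amplified-DNA peaks, those of highest −log10 q, 4 of 169 overlapped, 2.37% of either list. Their median width was 340.0 bp, the summit lay 31.0 bp from the centre, 83.4% were on AFFK contigs, spacing was 683 bp and scaled pileup 64.1. Peak number and median width stayed lower on amplified DNA with −log10 q of at least 5, on JH scaffolds alone and after merging. Peak number also did under the control limit. At native depth peaks were removed from the amplified list only, so a lower number there was fixed in advance. Width was not recomputed for the whole lists under the control limit or at native depth. The summit lay nearer the centre on amplified than on native DNA, against the order in all peaks, with −log10 q of at least 5 and against the native peaks of highest −log10 q.

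Alternatives chosen after the data were seen bear on depth and control. Scaled to native depth, 122 of 169 amplified-DNA peaks still reached the weakest p of their list, for a ratio of 0.00776 and 0.178% of native peaks kept. This setting leaves the native list whole, so neither value could rise. The weakest p of the native list is a weaker limit, and 168 of the 169 reached it. With control levels under 3 times the genome average the ratio was 0.00900, 17.4% of amplified-DNA and 0.156% of native-DNA peaks overlapped, and lost peaks were 202 bp wide with a scaled pileup of 8.31. No cause of these shifts was tested beyond what each restriction leaves out. No paired analysis was possible because each group holds 1 library, and for the same reason no library could be left out.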
